A study of Mus musculus with 35 samples.

Results

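The 9 genes *Ifitm1*, *Ifitm2*, *Ifitm3*, *Ifi27*, *Isg15*, *Bst2*, *Irf7*, *Ifit3* and *Ifih1* are known for their response to interferon and were read here in wild-type embryonic mouse brain, for which the sources describe no interferon or infection. They were chosen by name, and all 9 were found among the 53465 genes of the bulk table and the 21548 genes of the single-cell files. The brains were taken at E14.5 and sorted into mural, endothelial, microglial and neural cells, each sequenced in bulk from 3 brains. The 12 bulk libraries carry population and brain number in their names, Mu-340, Mu-343 and Mu-346 for mural cells and likewise Ec for endothelial, Mi for microglial and N for neural cells, and values are given below in that order of brains. Single cells were sorted from wild-type brain into plates, with the sort gate of each well on record, and wells of *Mof* knockout brain were not used because they carry no gate. Bulk neural cells were those negative for all sort markers, mural cells had high PDGFRβ, endothelial cells carried PECAM1 and CD102, and microglia carried CD11b with medium CD45. For the microglia gate of the plates the deposited well list names CD41 with medium CD45, where the study's text names CD11b and CD45. RNA of the neural libraries was extracted and made into libraries with other kits than that of the remaining 9 libraries, which were amplified from low input, so that neural cells and the kit cannot be told apart in the bulk data.

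Type I interferon binds the receptor pair *Ifnar1* and *Ifnar2*, which act through the kinases *Jak1* and *Tyk2* on a factor that includes *Irf9* and binds the interferon-stimulated response element (ISRE). Interferon gamma acts through *Ifngr1* and *Ifngr2*, and its signal reaches DNA at the gamma-activated site (GAS). Many stimulated genes also have a basal level in cells that have met no virus. The IFITM proteins hold back the entry of enveloped viruses at cell membranes, and *Bst2* (tetherin) holds budding virions at the cell surface. *Isg15* is a ubiquitin-like protein that is joined to other proteins, *Ifit3* belongs to a family of RNA-binding antiviral proteins, *Ifih1* (MDA5) senses long double-stranded RNA, and *Irf7* is a transcription factor that drives interferon genes.

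Promoters of 8 of the 9 genes were available from RefSeq (build GRCm38.p6) as 300 bases, 250 before and 50 after the start of the gene. The core of the ISRE, read as GAAA, any 2 bases and GAAA again, was searched on both strands with overlapping matches counted, and 6 of the 8 promoters held a match, against 3.44% of 32851 promoters of the same length. The stretches around the matches are shown because they carry what these genes share in sequence, written on the strand of the gene with the matches in capitals.
Ifitm2: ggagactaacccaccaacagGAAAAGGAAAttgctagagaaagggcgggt
Ifitm3: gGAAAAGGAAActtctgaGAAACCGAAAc
Isg15: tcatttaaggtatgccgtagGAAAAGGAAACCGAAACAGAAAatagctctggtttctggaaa
Bst2: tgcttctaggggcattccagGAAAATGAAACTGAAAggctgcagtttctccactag
Ifit3: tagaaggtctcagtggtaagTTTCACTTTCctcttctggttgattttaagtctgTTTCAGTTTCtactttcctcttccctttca
Ifih1: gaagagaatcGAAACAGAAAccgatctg

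*Isg15* held 3 matches that overlap in 1 run beginning 78 bases before the start (chr4:156200855-156200916, minus strand). *Bst2* held 2 that overlap (chr8:71537567-71537622, minus strand), and *Ifit3* held 2 separate matches that read on the opposite strand (chr19:34583353-34583436, plus strand). *Ifitm2* held 1 match (chr7:140955978-140956027, minus strand). The 2 matches of *Ifitm3* (chr7:141010715-141010743, minus strand) and the match of *Ifih1* (chr2:62646206-62646233, minus strand) lie after the start. The letters TTCNNNGAA, the GAS, were found in the windows of *Ifitm3* and *Bst2*, against 8.3% of all promoters. The windows of *Ifitm1* and *Irf7* held neither run of letters. The *Ifitm1* window (chr7:140967826-140968125, plus strand) lies inside the gene as annotated in GENCODE, which begins at chr7:140967221. Bases before that annotated start were thus not searched. These matches are descriptions of the windows and say nothing about the binding of a factor.

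In the annotation (GENCODE vM21, GRCm38), the 3 IFITM genes lie near each other on chromosome 7, *Ifitm2* (ENSMUSG00000060591) at chr7:140954837-140955987, *Ifitm1* (ENSMUSG00000025491) at chr7:140967221-140969825 and *Ifitm3* (ENSMUSG00000025492) at chr7:141009586-141010770. *Irf7* (ENSMUSG00000025498) lies on the same chromosome at chr7:141262706-141266481. *Ifi27* (ENSMUSG00000064215) lies at chr12:103434211-103440239, *Isg15* (ENSMUSG00000035692) at chr4:156199424-156200818 and *Bst2* (ENSMUSG00000046718) at chr8:71534255-71537456. *Ifit3* (ENSMUSG00000074896) lies at chr19:34583531-34588731 and *Ifih1* (ENSMUSG00000026896) at chr2:62595798-62646255. All 9 are protein-coding. Of the stretches of 50 bases in the exons of *Ifit3*, 51.2% also occur in its neighbour *Ifit3b*, and 48.5% of those of *Ifitm2* occur in other genes, so that reads of these genes may be split or lost in counting and their levels are uncertain.

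Bulk values are normalized counts, gene counts that the authors divided by a size factor of each library, and libraries held between 17638358 and 98414914 reads on genes. Each population carried its own markers, and all 8 neural, 8 mural, 8 endothelial and 10 microglia markers of the lists were higher in their own population. Markers of other cells were also present. Summed monocyte and neutrophil markers reached 3233, 2522 and 9402 normalized counts in Mi-340, Mi-343 and Mi-346 and at most 37.2 in any other library. Summed fibroblast markers reached 8873 to 11803 in mural libraries against at most 269.8 elsewhere. Of these 6 markers, 4 were higher and 1 lower in mural cells (19.3% and 22.7% of all genes tested), and 2 were higher in neural cells (32.9%). Summed erythroid markers were highest in endothelial libraries, at 13281 to 34539. Border macrophage markers summed to 15428 to 19620 in microglial libraries, with 376 to 1041 in mural libraries. In bulk samples, fewer cells of a type and less RNA per cell cannot be told apart.

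The lowest mean of the 4 populations was the neural one for all 9 genes. Compared with the mean of the other populations on the log2(normalized count + 1) scale, 8 of 9 genes were lower in neural libraries, all by more than 10-fold, where 31.2% of the 19765 genes tested were lower and 10% were lower by more than 10-fold (limma, adjusted p under 0.05). For 7 of the 9 genes every neural library lay below every other library, which held for 17.3% of all genes. The median difference of the 9 genes was −6.46, beside 0.09 over all genes tested. *Ifih1* did not pass, at −2.79 (SE 1.62, adjusted p = 0.152, limma), and it passed with edgeR (−4.12, adjusted p = 0.0386) and DESeq2 (−4.14, adjusted p = 0.000318).

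**Figure D1:**
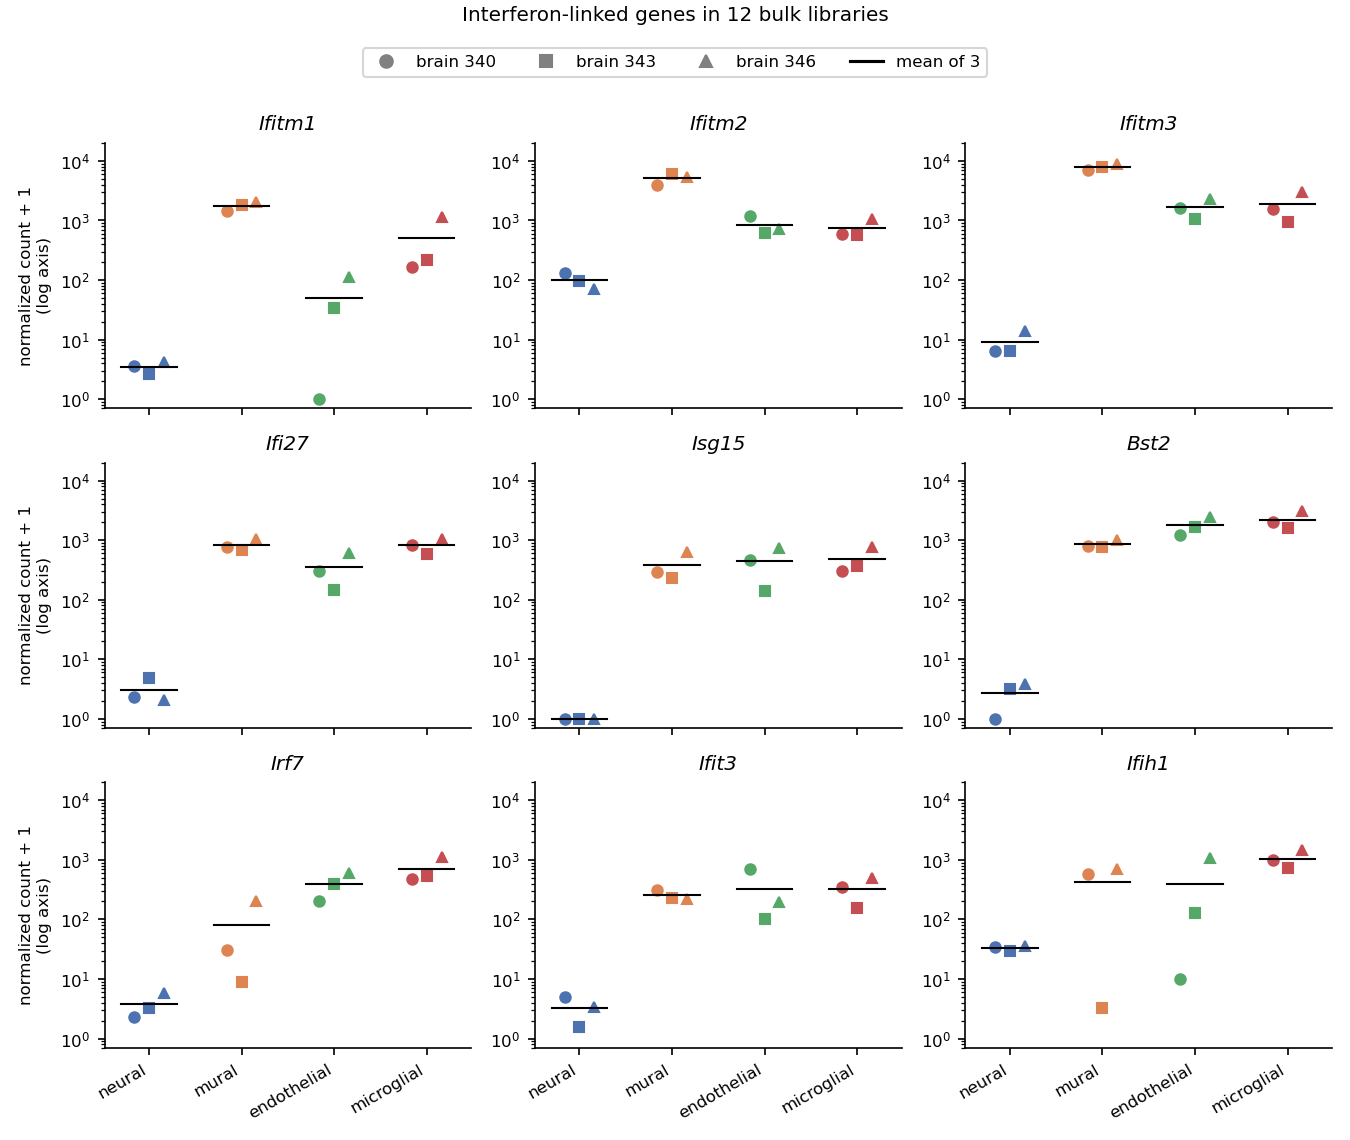
Normalized count + 1 (log axis) of the 9 genes in the 12 bulk libraries, by population, with 1 symbol for each brain and a line at the mean of 3. Neural libraries lie lowest for 7 genes, and the mural libraries lie above all others for *Ifitm1*, *Ifitm2* and *Ifitm3*.

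The IFITM genes had their highest level in mural cells, the pericytes and smooth muscle cells that wrap brain vessels. *Ifitm3* measured 7074, 8004 and 9003 normalized counts in Mu-340, Mu-343 and Mu-346. It measured 1571, 949.9 and 3050.4 in microglial and 1600.0, 1060.4 and 2309 in endothelial libraries, and 5.34, 5.54 and 13.2 in neural libraries. Every mural library thus lay above every other library, and the microglial and endothelial ranges overlapped. The mural mean of 8027 ± 964 (SD, n = 3) was 1000-fold that of neural libraries, which rested on 64 reads in all. *Ifitm3* was higher in mural cells than in the mean of the others by 4.84 on the log2 scale (SE 0.38, adjusted p = 4.1e-06, limma).

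*Ifitm2* measured 3999, 6099.5 and 5378 normalized counts in mural libraries. It measured 1198, 616 and 731 in endothelial, 582, 567 and 1065 in microglial and 128, 95.2 and 70.3 in neural libraries. Here too the mural libraries stood above the rest, and *Ifitm2* was the gene of the 9 with the most signal in neural cells, with 534 reads over the 3 libraries. It was higher in mural cells by 3.74 (SE 0.29, adjusted p = 3.7e-06, limma). The mural mean, 5159 ± 1067, was 52.7 times the neural mean, while the endothelial and microglial means were 8.67 and 7.54 times it.

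*Ifitm1* measured 1446, 1808 and 2039 normalized counts in mural libraries, again above all others. It measured 166, 212 and 1165 in microglial, 0, 32.6 and 113 in endothelial and 2.67, 1.66 and 3.17 in neural libraries. Ec-340 had no read of *Ifitm1*, below the neural libraries, and Mi-346 stood apart from the others of its population. *Ifitm1* was higher in mural cells by 6.04 (SE 1.16, adjusted p = 0.00182, limma). Its difference was −3.03 in endothelial (adjusted p = 0.0566) and 2.93 in microglial cells (adjusted p = 0.0603), neither called with limma. With 1 brain left out at a time, or Mi-346 alone, these differences ranged from −4.09 to −1.25 and from 2.05 to 3.41. With brain number as a replicate block both were called (adjusted p = 0.0373 and 0.0392, limma). The microglial difference was also called with edgeR (3.02, adjusted p = 0.0103), with DESeq2 (3.10, adjusted p = 0.00109) and, in limma, with quantile normalization, with a pseudocount of 5 and without the brain of Mi-340 (adjusted p = 0.0388 to 0.0423). Mi-346 also had the highest monocyte and neutrophil markers, among them *Ccr2*, a chemokine receptor of monocytes, at 1113, 1067 and 4333 normalized counts in Mi-340, Mi-343 and Mi-346; their part in the result was not tested. Without Mi-346 the microglial difference of *Ifitm1* was 2.05 (adjusted p = 0.258).

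Of the remaining membrane and effector genes, *Bst2* was lowest in mural cells among the amplified populations and *Ifi27* in endothelial cells. *Bst2* measured 2008, 1574 and 3078 normalized counts in microglial, 1201, 1669 and 2425 in endothelial and 797, 778 and 989 in mural libraries. It measured 0, 2.22 and 2.91 in neural libraries. All mural values lay below all endothelial and microglial values, which overlapped. The microglial mean, 2219.8 ± 774, was 1300-fold the neural mean, which rested on 15 reads. *Bst2* was higher in microglial (3.83, adjusted p = 2.4e-05), endothelial (3.39, adjusted p = 1.0e-04) and mural cells (2.06, adjusted p = 0.00239, limma), each against a mean that includes the neural libraries.

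*Isg15* had no read in any neural library. It measured 301, 366 and 753 normalized counts in microglial, 457, 141 and 748 in endothelial and 291, 227 and 637 in mural libraries. The 3 ranges overlapped, with Mu-346, Ec-346 and Mi-346 highest in each. Against a floor of 3 reads in each neural library, a mean of 2.15 normalized counts, *Isg15* was at least 179-fold higher in mural, 208-fold higher in endothelial and 219.8-fold higher in microglial libraries.

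*Ifi27*, which encodes a small mitochondrial membrane protein, measured 777, 688 and 1029 normalized counts in mural and 844, 583 and 1060.0 in microglial libraries. It measured 305, 142 and 617 in endothelial and 1.34, 3.88 and 1.06 in neural libraries. Mural and microglial levels overlapped nearly whole, with means of 832 ± 177 and 829 ± 239 (SD, n = 3), and the endothelial mean was 355 ± 241. *Ifi27* was higher in mural (3.21), microglial (3.18) and endothelial cells (1.28, SE 0.46, adjusted p = 0.0447, limma). The endothelial call was lost with the replicate block (adjusted p = 0.0602) and without the brain of Ec-340 (adjusted p = 0.231) or that of Ec-346 (adjusted p = 0.275). It was also lost with a pseudocount of 5 (adjusted p = 0.106), with no filter on low values (adjusted p = 0.0592) and without Mi-346 (adjusted p = 0.0506), and within the 9 amplified libraries the endothelial difference was −1.44.

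*Ifit3* measured 307, 231 and 221 normalized counts in mural, 689, 100.8 and 193 in endothelial and 345.9, 153 and 487 in microglial libraries. In neural libraries it measured 4.01, 0.554 and 2.38. The amplified populations overlapped, and Ec-340 was the highest of all 12. Differences from the mean of the others were 2.08 in mural, 1.98 in endothelial and 2.40 in microglial cells (adjusted p = 0.0198, 0.0245 and 0.00869, limma). Each of these calls was lost when a brain was left out. The mural call was lost without the brain of Mu-343 (adjusted p = 0.0906) or Mu-346 (0.108), the endothelial call without that of Ec-340 (0.155) or Ec-346 (0.111) and the microglial call without that of Mi-346 (0.145).

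The transcription factor *Irf7* and the sensor *Ifih1* had their highest mean in microglial cells. *Irf7* measured 469.5, 537 and 1103 normalized counts in microglial and 206, 390.4 and 602 in endothelial libraries. In mural libraries it measured 30.1, 7.99 and 203, and in neural libraries 1.34, 2.22 and 4.76. Mural libraries lay below the endothelial and microglial ones, and their SD (107) exceeded their mean (80.3). *Irf7* was higher in microglial (4.16, SE 0.80, adjusted p = 0.00155) and endothelial cells (3.04, adjusted p = 0.0115), and its mural difference was −1.29 (adjusted p = 0.223, limma). The endothelial call was lost without the brain of Ec-340 (adjusted p = 0.0852) or Ec-343 (adjusted p = 0.0774).

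*Ifih1* measured 989, 717 and 1435 normalized counts in microglial libraries. It measured 577, 2.28 and 711 in mural, 8.86, 125 and 1059 in endothelial and 33.4, 28.8 and 34.9 in neural libraries. Mu-343 and Ec-340 thus lay below every neural library, while the neural libraries differed little (32.4 ± 3.17, SD, n = 3). None of its 4 differences passed with limma, and the SE of each was 1.62, while DESeq2 called the microglial difference (2.57, adjusted p = 0.0383) and the neural one given above.

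Over the 9 genes, 7 were higher in mural cells than in the mean of the others (background 19.3% of genes tested), 6 in endothelial (19.7%) and 6 in microglial cells (23.4%). The endothelial count of 6 rested on the brain of Ec-340, without which 1 gene was called, with *Isg15* (adjusted p = 0.0623) and *Ifitm3* (adjusted p = 0.0798) among those lost. Without the same brain the microglial call of *Ifitm3* was lost too (adjusted p = 0.0541, limma). Differences over 10-fold were seen for *Ifitm1*, *Ifitm2* and *Ifitm3* in mural cells (background 4.99%), for *Bst2* in endothelial cells (6.28%) and for *Bst2* and *Irf7* in microglial cells (8.27%). These counts include neural libraries in the mean of the others. Within the 9 amplified libraries, 3 genes were higher in mural cells (background 12.7%), *Ifitm1* by 4.57 (adjusted p = 0.0409), *Ifitm2* by 2.74 (adjusted p = 0.000369) and *Ifitm3* by 2.30 (adjusted p = 0.00267, limma). There *Bst2* and *Irf7* were lower in mural cells (−1.16, adjusted p = 0.0163, and −3.67, adjusted p = 0.0188), where 14.8% of genes were lower. *Ifitm1* and *Ifitm2* were lower in endothelial cells (−5.64 and −1.22, background 11.4%), and *Ifitm2* was lower in microglial cells (−1.53, adjusted p = 0.00520, background 14.1%). No gene of the 9 was higher in endothelial or microglial cells within these libraries with limma, where 11% and 15.6% of genes were.

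All 3 mural libraries lay above all other libraries for 3 of the 9 genes, the IFITM genes, against 7.25% of all genes. No gene of the 9 had all endothelial or all microglial libraries above the rest, which held for 6.28% and 11.5% of all genes. Ordered by mean, the 4 populations give 3 neighbouring pairs per gene, 27 in all, of which 11 were called, 7 of them among the 9 pairs with neural cells (background 54.6%, 57.7% and 59.8% of genes for neural against mural, endothelial and microglial cells). Of the 18 pairs between amplified populations, 4 were called. These were mural over endothelial for *Ifitm2* (2.64, adjusted p = 0.000251, background 27.8% of genes in either direction), mural over microglial for *Ifitm3* (2.27, adjusted p = 0.00252, background 38%), microglial over endothelial for *Ifitm1* (4.47, adjusted p = 0.0333, background 32.4%) and endothelial over mural for *Irf7* (3.25, adjusted p = 0.0310, limma). The *Ifitm1* call was lost when any 1 brain was left out (adjusted p = 0.0693 to 0.130). It was also lost with no filter on low values (adjusted p = 0.0546) and without Mi-346 alone (adjusted p = 0.124, limma). The call of endothelial over mural for *Irf7* was lost without the brain of N-340 (adjusted p = 0.146), without that of N-343 (adjusted p = 0.255) and with edgeR (adjusted p = 0.114). Among the pairs with neural cells, that of mural over neural for *Irf7* was lost without the brain of N-340 (3.32, adjusted p = 0.106, limma).

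The brain of Mu-346, Ec-346 and Mi-346 had the highest value of a gene in 23 of the 27 cases that 9 genes in 3 amplified populations give, that of Mu-340 in 3 and that of Mu-343 in 1. For 7 genes Mu-346, Ec-346 and Mi-346 were all highest in their population, which held for 3.3% of all genes, and for none were the libraries numbered as Mu-340 or Mu-343 (5.12% and 2.36% of all genes). The exceptions were *Ifitm2* and *Ifit3*. The value in Mu-346, Ec-346 or Mi-346 was a median of 1.85 times the mean of the other brains, from 0.489 for endothelial *Ifit3* to 15.8 for endothelial *Ifih1*. The test of a difference between brains over all 12 libraries called none of the 9 genes (limma F test, adjusted p = 0.952 to 0.979). *Ifitm3* (p = 0.00942) and *Irf7* (p = 0.0461) had an unadjusted limma p under 0.05, beside 2.16% of all genes. edgeR called none and gave 3 genes such a p, beside 1.21% of all genes, and 5 of 19765 genes (0.0253%) were called with limma. Sex-linked genes set the brain of N-340 apart, with *Xist* at 7846 normalized counts or more in its 4 libraries and at most 89.03 in the other 8. Summed monocyte and neutrophil markers were also highest in Mi-346 (9402 normalized counts, beside 3233 and 2522), summed erythroid markers in Ec-346 (34539, beside 14861 and 13281) and summed fibroblast markers in Mu-346 (11803, beside 9181 and 8873), and their part in the result was not tested. What else differed between the brains is not stated.

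**Figure D2:**
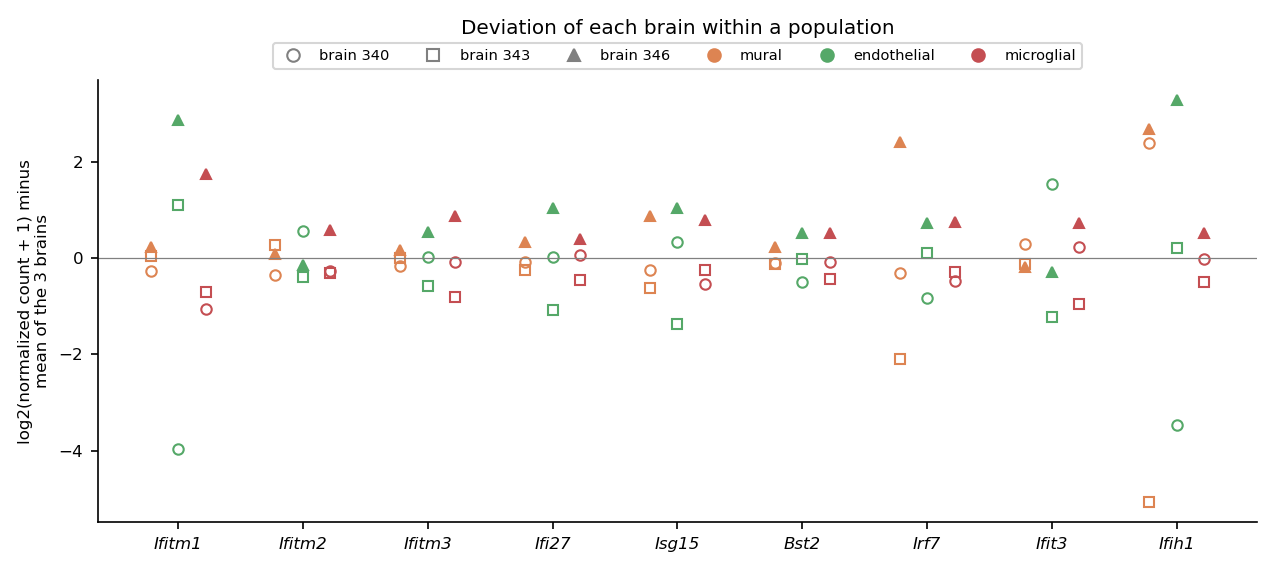
Deviation of each amplified library from the mean of the 3 brains of its population, in log2(normalized count + 1), for the 9 genes, with filled triangles for Mu-346, Ec-346 and Mi-346 and colours for populations. Those libraries are the highest in 23 of 27 cases, with *Ifitm2* and *Ifit3* the genes in which another brain leads.

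The other genes of the pathway were read from lists that leave the 9 genes out. Of 11 interferon ligands, 8 had no read in any library, none reached the mean of 10 normalized counts needed for the test, and the highest single value was 21.4, for *Ifnab*. Of 5 receptors tested, 4 were lower in neural cells (background 31.2%), and 2, 3 and 4 were higher in mural, endothelial and microglial cells (19.3%, 19.7% and 23.4%), with 1 lower in mural cells. *Ifngr1*, the ligand-binding chain of the interferon gamma receptor, was higher in microglial cells by 3.96 (adjusted p = 2.8e-08), and *Il10rb*, a chain shared by the lambda interferon receptor, by 3.23 (adjusted p = 9.8e-08). *Ifnar1* and *Ifnar2* were higher in endothelial cells by 1.02 and 0.81 (adjusted p = 0.00934 and 0.000300, limma). These differences include the neural libraries in the mean of the others. Within the 9 amplified libraries none was higher and 4 were lower in mural cells (background 12.7% and 14.8%), none was higher and 3 were lower in endothelial cells (11% and 11.4%), and 4 were higher and none lower in microglial cells (15.6% and 14.1%). There the endothelial differences of *Ifnar1* and *Ifnar2* were 0.94 (adjusted p = 0.0672) and 0.13 (adjusted p = 0.483, limma).

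Of 10 genes of JAK-STAT signalling, 6 were higher and 1 lower in microglial cells (background 23.4% and 22.3%), 2 higher and 3 lower in mural cells (19.3% and 22.7%), 1 higher and none lower in endothelial cells (19.7% and 22.4%) and 1 higher and 4 lower in neural cells (32.9% and 31.2%). Within the amplified libraries 3 were higher and 1 lower in microglial cells (15.6% and 14.1%), none higher and 1 lower in mural cells (12.7% and 14.8%) and 1 higher and 1 lower in endothelial cells (11% and 11.4%). *Jak1* was higher in mural cells by 0.92 (adjusted p = 7.4e-05) and in microglial cells by 1.07 (adjusted p = 1.3e-05, limma). In the single-cell sums described below, *Jak1* was called in the microglia gate (1.16, adjusted p = 3.8e-05) and not in the mural gate (0.45, adjusted p = 0.198, edgeR). *Socs1* and *Socs3*, which limit the signal, were higher in bulk microglial cells by 2.58 and 2.51. In the single-cell sums neither was called in the microglia gate (0.16 and 1.15, adjusted p = 0.856 and 0.0702, edgeR). Both were higher in the mural gate there (1.91 and 1.98, adjusted p = 0.00210 and 0.000724, edgeR). *Jak2* was the gene higher in bulk neural cells, by 1.79 (adjusted p = 0.000116, limma), where the kit differs too. In the single-cell sums its neural-gate difference was 0.17 (adjusted p = 0.763), and it was higher in the endothelial gate (0.88, adjusted p = 0.0375, edgeR).

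Of 8 other interferon regulatory factors, 6 were higher and none lower in microglial cells, where 23.4% of all genes were higher, and 3 were higher within the amplified libraries (background 15.6%). None was higher and 1 lower in mural cells (19.3% and 22.7%), 1 was higher and 1 lower in endothelial cells (19.7% and 22.4%), and none was higher and 5 lower in neural cells (32.9% and 31.2%). *Irf5* and *Irf8*, factors of myeloid cells, were higher in microglial cells by 9.64 and 7.61 (adjusted p = 4.8e-06 and 2.1e-07), and *Irf2* was higher in endothelial cells by 1.91. Of 13 genes of nucleic acid sensing, 10 were higher and none lower in microglial cells (background 23.4% and 22.3%), 5 higher and 3 lower in endothelial cells (19.7% and 22.4%), none higher and 4 lower in mural cells (19.3% and 22.7%) and 1 higher and 8 lower in neural cells (32.9% and 31.2%). Within the amplified libraries 6 were higher in microglial cells (15.6%), 1 was higher and 3 lower in endothelial cells (11% and 11.4%), and none was higher and 6 lower in mural cells (12.7% and 14.8%). The endosomal receptors *Tlr7* and *Tlr9* were higher in microglial cells by 10.59 and 6.08. *Zbp1*, *Tlr3* and *Ddx58* (RIG-I) were higher in endothelial cells by 3.54, 2.81 and 2.25, and *Adar*, which edits double-stranded RNA, in neural cells by 4.03 (adjusted p = 0.000841, limma).

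Among 48 other interferon-stimulated genes, 39 were lower and 1 higher in neural cells (background 31.2% and 32.9%), and 39 were higher and none lower in microglial cells (23.4% and 22.3%). In mural cells 11 were higher and 13 lower (19.3% and 22.7%), and in endothelial cells 16 were higher and 8 lower (19.7% and 22.4%). The medians were −3.43 in neural, −0.38 in mural, 0.40 in endothelial and 3.54 in microglial cells, beside 0.09, −0.10, −0.12 and −0.02 over all genes. Within the amplified libraries, 18 were higher and 2 lower in microglial cells (median 2.09, background 15.6% and 14.1%), 3 higher and 19 lower in mural cells (median −1.48, background 12.7% and 14.8%) and 3 higher and 10 lower in endothelial cells (median −0.75, background 11% and 11.4%). *Oasl2*, of the oligoadenylate synthetase family, was the most raised in mural cells at 6.83, *Ifi44* in endothelial cells at 5.41 and *Ifi207* in microglial cells at 10.70. Of the other IFITM genes, *Ifitm6* and *Ifitm10* were tested, and both were higher in microglial cells (6.53 and 6.11, adjusted p = 1.1e-05 and 0.00180, limma). Mu-346, Ec-346 and Mi-346 were all highest in their population for 7 of these 48 genes (14.6%, beside 3.3% of all genes), for 1 of 5 receptors, 1 of 10 signalling genes and none of the regulatory factors or sensors.

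**Figure D3:**
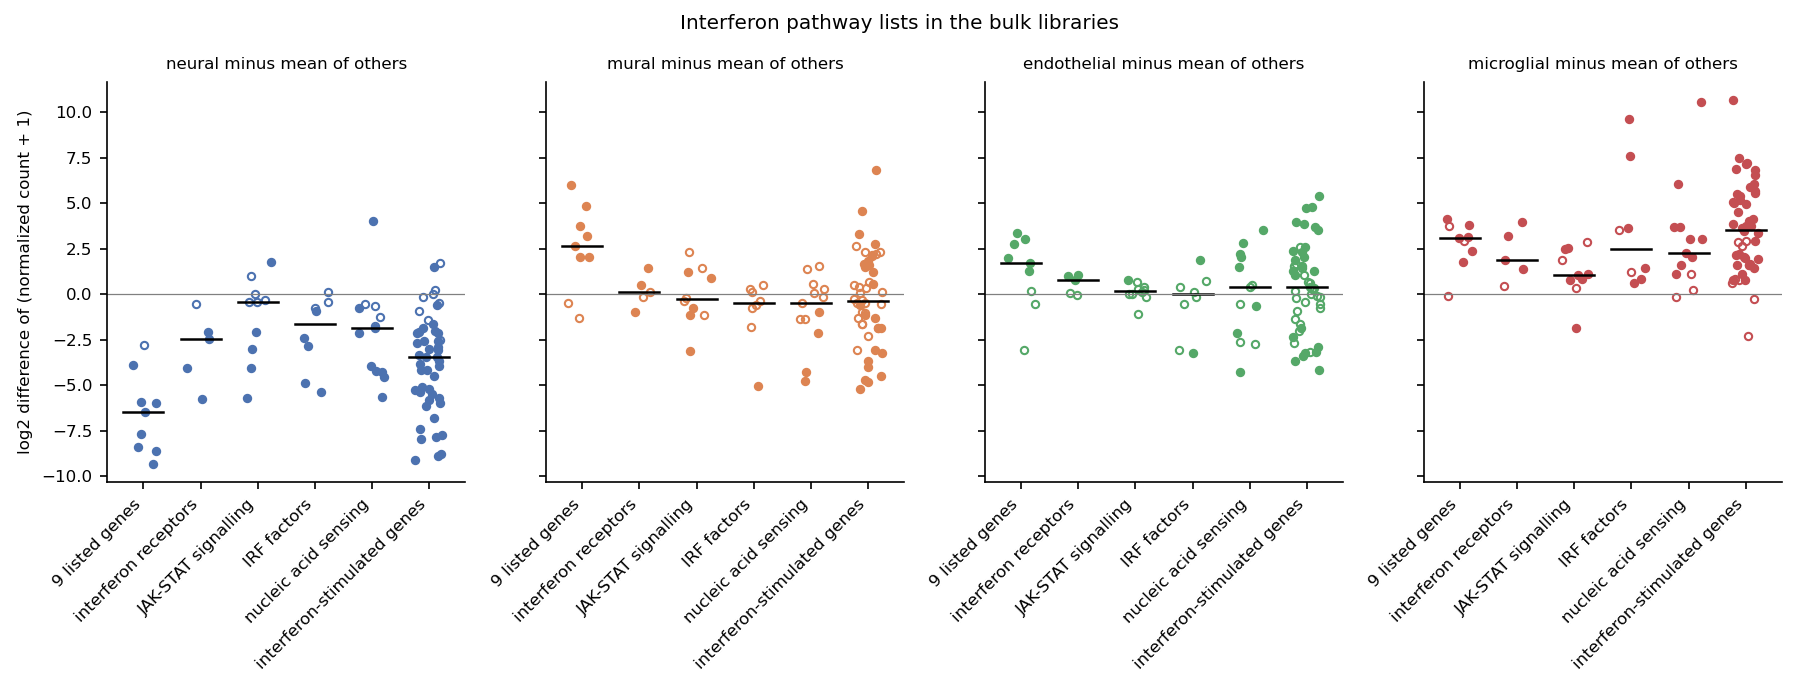
Difference of each gene in log2(normalized count + 1) between 1 population and the mean of the other 3, for the 9 genes and for 5 lists of the pathway without them; filled points passed limma at adjusted p under 0.05 and lines mark medians. Medians of the 9 genes are −6.46 in neural and 2.69 in mural cells, and the other 48 interferon-stimulated genes have medians of −3.43 and −0.38 there.

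The genes whose pattern over the 12 libraries was most like each of the 9 were named by Pearson correlation of log2(normalized count + 1), as a description. The libraries share kits and populations, and the low neural libraries enter every value. *Ifitm1* was most like *Aga*, *Il13ra1* and *Tbc1d15* (r from 0.983 to 0.966), *Ifitm2* like *Ugp2*, *Atraid* and *Ppp1r12a* (0.986 to 0.983) and *Ifitm3* like *Gm14005*, *Crip1* and *Ndufs7* (0.992 to 0.990). *Ifi27* was most like *Krcc1*, *Pdia3* and *Fcgrt* (0.993 to 0.986), *Isg15* like *Xaf1*, *Pdia3* and *Gm10273* (0.991 to 0.987) and *Bst2* like *Gm13578*, *Tgfbi* and *Clic1* (0.994 to 0.990). *Irf7* was most like *Gbp3*, *Fyco1* and *Plod1* (0.974 to 0.969), *Ifit3* like *S100a6*, *Gm14200* and *Gm42726* (0.980 to 0.979) and *Ifih1* like *H2-M3*, *Cwc27* and *Smkr-ps* (0.942 to 0.936). *Xaf1* and *Gbp3* belong to the list of interferon-stimulated genes.

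Single cells were made with 1 chemistry in every gate, so that the neural gate could be read without the change of kit. Of 994 wells in the 4 gates, 686 had more than 1500 transcripts and were kept, 123 neural, 210 mural, 225 endothelial and 128 microglia-gate cells, with medians of 7717, 6885, 6408 and 10761 transcripts. No doublet caller was run. At least 1 of the 9 genes was seen in 84.8% of mural-gate, 71.1% of microglia-gate, 42.7% of endothelial-gate and 10.6% of neural-gate cells. At least 2 were seen in 56.7%, 33.6%, 13.8% and 0% of them. Neural-gate shares are given beside the others as a comparison and not as a measured background.

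*Ifitm3* was seen in 132 of 210 mural-gate cells (62.9%, exact 95% interval 55.9 to 69.4%), *Ifitm2* in 44.8% and *Ifitm1* in 42.4%. In the neural gate these shares were 3.25%, 4.88% and 0.813%. Endothelial-gate shares were 10.2%, 13.3% and 3.56%, and microglia-gate shares 10.9%, 10.2% and 7.81%. The 3 genes thus stood highest in the mural gate. Thinned to 1500 transcripts per cell the mural shares were 21.4%, 14.8% and 14.8%, against at most 5.47% in any other of the 4 gates. In wells sorted for medium or low PDGFRβ, outside the 4 gates, the thinned share of *Ifitm3* was 8.70%. Summed over cells, *Ifitm3* made up 261, 183 and 96.1 CPM, transcripts scaled to a common library total, in the mural gate of plates 1, 2 and 3.

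*Bst2* was seen in 58 of 128 microglia-gate cells (45.3%, exact 95% interval 36.5 to 54.3%), 21.3% of endothelial-gate, 10.5% of mural-gate and 0.813% of neural-gate cells. Thinned, the shares were 10.9%, 4.89%, 2.86% and 0%. *Ifi27* was seen in 24.2% of microglia-gate, 12.4% of mural-gate and 2.67% of endothelial-gate cells, and in 0 of 123 neural-gate cells, with an exact 95% upper bound of 2.95%. *Ifih1* was seen in 10.2% of microglia-gate, 3.81% of mural-gate, 1.78% of endothelial-gate and 0 of 123 neural-gate cells. These 3 genes had their highest share in the microglia gate, which was also the deepest. Intervals cover counting error only.

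*Isg15* was seen in 7.81% of microglia-gate, 6.67% of endothelial-gate and 5.24% of mural-gate cells, with overlapping intervals, and in 0 of 123 neural-gate cells. *Irf7* was seen in 4.69% of microglia-gate and 2.38% of mural-gate cells, and *Ifit3* in at most 0.952% of any gate. *Isg15*, *Irf7*, *Ifit3* and *Ifih1* had too few counts for the test below. In edgeR with no filter on low counts, *Irf7* was higher in the microglia gate than in the mean of the others (2.48, adjusted p = 0.0163, background 11.6%). So were *Isg15* (2.17, adjusted p = 0.00790) and *Ifih1* (3.27, adjusted p = 6.6e-05). *Isg15* was also higher in the mural gate (2.10, adjusted p = 0.0157). Both *Isg15* and *Ifih1* were lower in the neural gate (−5.92 and −4.68), and *Ifit3* was not called in any gate. Of 10 microglia-gate *Irf7* transcripts, 6 lay in 5 cells described below.

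**Figure D4:**
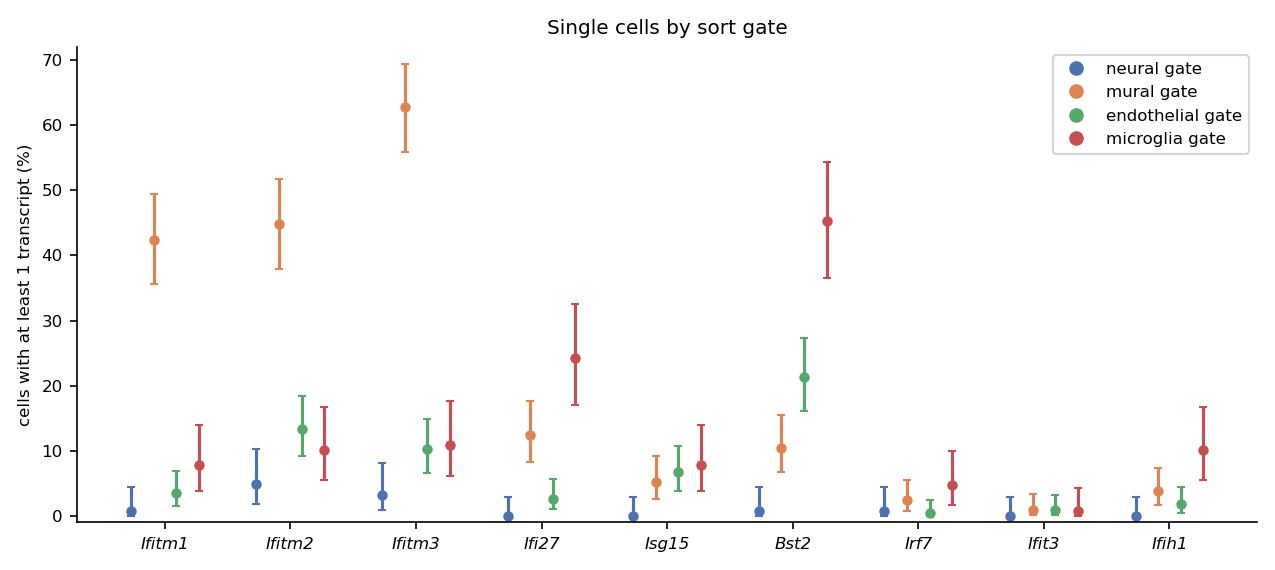
Share of cells with at least 1 transcript of each gene in the 4 sort gates, with exact 95% binomial intervals that cover counting error only. *Ifitm3* reaches 62.9% in the mural gate and *Bst2* 45.3% in the microglia gate, and no neural-gate share exceeds 4.88%.

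Counts summed per plate and gate were tested with edgeR over 9281 genes, where 5 of the 9 genes had enough counts. The cells came from 3 wild-type brains, but which plate held cells of which brain is not stated, so that these p-values measure the spread between plates. All 5 were lower in the neural gate (background 17.3%), from −2.24 for *Ifitm2* to −6.20 for *Ifi27*, and the call of *Ifitm2* was lost without plate 2 (adjusted p = 0.300). In the mural gate 4 were higher (background 13.5%): *Ifitm3* by 3.49 (SE 0.28, adjusted p = 3.3e-16), *Ifitm1* by 3.45, *Ifitm2* by 2.63 and *Ifi27* by 2.32 (adjusted p = 0.00312), the last not called with DESeq2 (1.92, adjusted p = 0.120). In the endothelial gate *Bst2* alone was higher, by 1.38 (adjusted p = 0.0383, background 16.4%), and this call was lost without plate 1 (adjusted p = 0.580) or plate 2 (adjusted p = 0.325) and with DESeq2 (adjusted p = 0.468). In the microglia gate 4 were higher (background 22.2%), *Ifitm1* by 3.73, *Bst2* by 3.68, *Ifi27* by 3.19 and *Ifitm3* by 1.07 (adjusted p = 0.0149, edgeR). The *Ifitm3* call was lost without plate 1 (adjusted p = 0.158) or plate 2 (adjusted p = 0.447) and with DESeq2 (adjusted p = 0.248), and the *Ifitm1* call without plate 2 (1.44, adjusted p = 0.300).

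The microglia-gate values of *Ifitm1* and *Ifitm3* rested on few cells. A single plate 2 cell of 9279 transcripts held 125 of the 139 *Ifitm1* transcripts of the gate. Summed over all cells of the gate *Ifitm1* was at 101.3 CPM, and without that cell at 10.3 CPM. Within the gate, 5 cells held 5, 53, 78, 8 and 21 transcripts of the monocyte and neutrophil markers beside 2, 22, 37, 2 and 14 of the microglia markers. The other 123 cells held at most 2 of the former and a median of 154 of the latter, and no cell of the other gates reached 5. The 5 cells held 127 of 139 *Ifitm1* and 40 of 65 *Ifitm3* transcripts, and 0 of 43 *Ifi27* and 4 of 161 *Bst2* transcripts. They also held 6 of 10 *Irf7*, 8 of 21 *Ifitm2* and the 1 *Ifit3* transcript, and *Irf7* was at 3.03 CPM in the other 123 cells, beside 7.30 CPM in the whole gate. Without them, an alternative chosen after seeing the data, *Ifitm1* was at 9.09 CPM with a difference of 0.33 (adjusted p = 0.668) and *Ifitm3* at 18.9 CPM with −0.23 (adjusted p = 0.763). *Bst2* (3.70) and *Ifi27* (3.24) were still called, at 119 and 32.6 CPM (edgeR). *Ifih1*, which had too few counts for the test, kept 20 of its 20 transcripts.

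**Figure D5:**
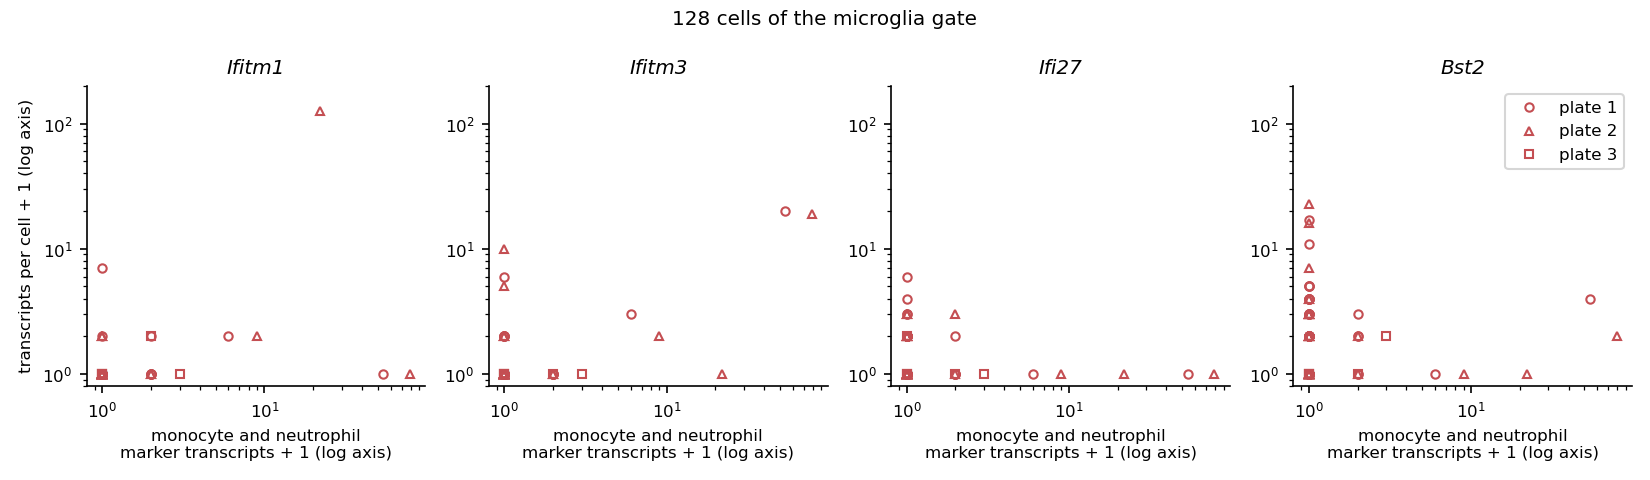
Transcripts of 4 genes against transcripts of the monocyte and neutrophil markers, each + 1 on log axes, in the 128 cells of the microglia gate, with 1 symbol for each plate. Most *Ifitm1* and *Ifitm3* transcripts lie in the 5 cells at the right that hold 5 or more marker transcripts, and most *Bst2* and *Ifi27* transcripts lie in the other 123.

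In the mural gate the IFITM genes were spread over many cells, and the cell with the most *Ifitm1* held 8 of 167 transcripts. Fibroblast markers, whose sum was also high in the bulk mural libraries, gave at least 1 transcript in 179 of the 210 mural-gate cells. The 31 cells without any had *Ifitm1* at 110 CPM and *Ifitm3* at 165 CPM, beside 107 and 216 CPM in the 179. *Ifitm2* was at 30.5 CPM in the 31 cells, from 5 transcripts, and at 107 CPM in the 179. *Ifi27* was at 6.10 CPM in the 31, from 1 transcript, and at 26.7 CPM in the 179, and *Bst2* at 0 and 23.8 CPM. *Ifitm3* was seen in 32.3% of the 31 cells and 68.2% of the 179. The 31 cells were shallower, with a median of 4648 transcripts against 7143.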

How the data were processed

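Wild-type bulk libraries (12) and 11 wild-type single-cell libraries were used. Bulk values are signal: gene counts the authors divided by size factors, deposited as normalized counts (mm10), from which whole reads were recovered (100% of 124078 values up to 100 reads whole within 0.01). Single-cell values are deposited expected counts, transcript counts the authors corrected for repeated identifiers. The submitters' processing notes name BWA 0.6.2-r126, STAR, featureCounts and DESeq2. Symbols came from GENCODE vM21 (99.6% of identifiers matched).

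Bulk: limma 3.58.1 with trend on log2(normalized count + 1), genes with a mean of at least 10, each population against the mean of the others. Single cells: more than 1500 transcripts, counts summed per plate and gate, rounded, edgeR 4.0.16 quasi-likelihood test with TMM and filterByExpr. Tests were two-sided, with Benjamini-Hochberg adjustment over all genes tested. As alternatives, edgeR and DESeq2 1.42.0 on recovered reads called 11607 and 12305 genes in neural cells, where limma called 12680; R was 4.3.3. Scripts were tested on simulated data.

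Same-numbered bulk libraries were taken from 1 brain, since the study collected all populations of a brain together; their deviations correlated between −0.0540 and 0.0801 over 19765 genes. Sums of the 4 gates share plates, and a block by plate was an alternative. The members and lists were chosen with earlier results of these data known. Named genes are the 9, the 3 most correlated with each, and at most 3 called genes with the largest difference per list and population; markers are named where they move with a result, and *Xist* and *Ifnab* were named after their values were seen. The values of 1 gene of the signalling list are not reported here.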

Additional observations from a re-analysis of the deposited data

How the results depend on the processing

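In bulk, 8 or 9 of the 9 genes were lower in neural cells under every alternative run, and 9 to 14 of the 27 neighbouring pairs were called. Most differences of single genes in bulk and single cells kept direction and call (754 and 174), 34 and 10 lost the call, 22 in bulk gained it, and 36 and 4 turned; the cause was not tested. Within the 9 amplified libraries, 3 genes were higher and 2 lower in mural, 0 and 2 in endothelial and 0 and 1 in microglial cells, since the neural libraries no longer enter the mean; there *Isg15* (−0.19), *Bst2* (−1.16) and *Ifit3* (−0.084) turned in mural, *Isg15* (−0.10), *Ifitm2* (−1.22), *Ifitm3* (−1.21), *Ifi27* (−1.44) and *Ifit3* (−0.19) in endothelial and *Ifitm3* (−1.10) in microglial cells. With brain number as a replicate block, and with a pseudocount of 5, 1 gene was lower in endothelial cells, *Ifitm1*; beyond the calls given for *Ifitm1* and *Ifi27*, the block in limma changed no call. *Ifih1* turned in mural and endothelial cells with edgeR (0.89 and 0.69), DESeq2 (0.86 and 0.71) and edgeR with the replicate block (0.64 and 0.085). For mural against endothelial, *Ifit3* was −0.32 with edgeR and −0.37 with DESeq2, and *Ifih1* −0.040 with a pseudocount of 0.5. *Ifitm2* in microglial cells was 0.037 with quantile normalization.

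With 1 brain left out at a time, or Mi-346 alone (chosen after seeing the data, as was edgeR with the block), the genes called higher in endothelial cells numbered 1 to 5. *Ifih1* ranged from −2.25 to 1.98 in mural and −1.58 to 1.64 in endothelial cells, and *Ifitm2* from −0.094 to 0.41 in endothelial and −0.44 to 0.19 in microglial cells. Mural against endothelial, *Ifih1* ranged from −2.92 to 2.65, *Isg15* from −0.44 to 0.23 and *Ifit3* from −0.49 to 0.69, and *Ifi27* ranged from −0.081 to 0.22 against microglial cells. Microglial against endothelial, *Ifitm2* ranged from −0.58 to 0.21, *Ifitm3* from −0.37 to 0.19, *Isg15* from −0.30 to 0.69 and *Ifit3* from −0.20 to 0.96.

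In single cells, DESeq2 called 0 genes higher in the endothelial gate and gave no adjusted p for *Ifitm1*. In the microglia gate 7 genes were higher with no filter on low counts (11.6% of genes in that fit) and 2 without the 5 cells with monocyte and neutrophil markers (22.2%), where *Ifitm3* was −0.23. *Ifitm2* in the endothelial gate was −0.17 in cells whose markers match the gate. With 1 plate left out at a time, 3 to 6 genes were lower in the neural gate, 0 to 1 higher in the endothelial gate and 1 to 5 in the microglia gate, while *Ifitm1* in the endothelial gate ranged from −3.19 to 0.015 and *Ifitm2* in the microglia gate from −1.39 to 0.34. The block by plate changed no call. Of the shares of cells, 215 stayed within their interval and 37 moved, most by thinning to 1500 transcripts. Depth limits the single cells, where 4 of the 9 genes had too few counts to test.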

Other observations

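Wells sorted for medium or low PDGFRβ belong to none of the 4 gates, and 23 of them had more than 1500 transcripts (median 5718). *Ifitm3* was seen in 5 of these cells (21.7%, exact 95% interval 7.46 to 43.7%), *Ifitm1* and *Ifitm2* in 3 each (13.04%) and *Ifi27* in 1. *Bst2*, *Isg15*, *Irf7*, *Ifit3* and *Ifih1* were seen in 0 of 23, with an exact 95% upper bound of 14.8%.

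Barcodes that no listed well used (1056) held 1.86% as many transcripts as the sorted wells. They held 8 transcripts of *Ifitm1*, 5 of *Ifitm3*, 4 of *Ifitm2*, 1 each of *Ifi27*, *Bst2* and *Ifih1*, and 0 of *Isg15*, *Irf7* and *Ifit3*.

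The cells with the most members at once were a mural-gate cell with 7 of the 9 genes and another with 6, and 5 members were the most in any endothelial-gate or microglia-gate cell.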
